A study of Mus musculus with 9 samples.

Results

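MicroRNAs of the mir-302 cluster and of its human relatives miR-371, miR-372 and miR-373 were followed on a microRNA array in mouse embryonic stem (ES) cells that lack DGCR8. The members were chosen by probe name: all probes whose name starts with miR302, and the human-named probes miR371, miR372, miR373 and miR373*. This gave 8 of the 206 probes, and 4 of the 8 (miR302a, miR302c, miR371 and miR373*) had a value on at least 1 array. The other 4, miR302b*, miR302c*, miR372 and miR373, had no value on any of the 9 arrays, as was the case for 45 of all 206 probes.

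The mir-302 cluster is a single transcript that holds several hairpins and is expressed in pluripotent cells, more strongly in human ES cells and in the epiblast than in mouse ES cells. Mouse ES cells rely mainly on the mir-290 cluster, whose human counterpart is the cluster of mir-371, mir-372 and mir-373. Most of these microRNAs share a seed, the bases that pair with target messages, and in ES cells they are known to promote passage from G1 to S phase and to restrain cell-cycle inhibitors. All are canonical microRNAs: DGCR8 binds the primary transcript and positions the nuclease Drosha, which cuts out the hairpin, and Dicer then trims the hairpin to the mature strand.

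Each array compared small RNA of one group with that of wild-type V6.5 ES cells, a hybrid mouse line that served as the reference throughout. The groups were V6.5 ES cells with a heterozygous DGCR8 knockout (3 arrays, RNA of 2 preparations), homozygous DGCR8 knockout ES line 1 (2 arrays), homozygous knockout ES line 2 (2 arrays) and irradiated mouse embryonic fibroblasts, the feeder cells (2 arrays). The 2 arrays of a knockout line were repeat hybridisations, so a line counts as 1 replicate, and the ES cells had been grown on feeders and passaged off them before extraction. In each group replicate 2 carried its own RNA in channel 1 and the other arrays carried it in channel 2. All values are log2 ratios of a group's RNA over wild type on the scale set by added control RNAs. Negative values mean less signal than in wild type. The direction is likely rather than stated, since the series text names wild type as the reference on each array. If it were the opposite, every sign, every rank from the top or bottom and every word for lower or higher below would turn, and the sizes would stay. In the direction used, feeder means were -7.95 to -5.92 for the 8 mir-290 probes and 2.19 to 5.88 for 15 fibroblast marker probes. The direction itself was not tested. The log base was seen on 1 array and assumed for the others. Only microRNAs were measured, so the loss of DGCR8 itself could not be checked on these arrays.

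The sequences show how the members are related and why the mir-290 and mir-17 probes are set beside them. All are from RefSeq (mouse GRCm38.p6) and written 5′ to 3′, and in the mature strands the capitals mark the seed, bases 2 to 8. Of the 8 members, 4 matched a mouse gene, and the 4 with human names did not. For mir-302 the table gave these mature strands, of which miR-302b-3p and miR-302d-3p have no probe of that name. The -5p strands are the usual partners of the -3p strands.
miR-302b-3p, chr3:127545275-127545297, plus strand: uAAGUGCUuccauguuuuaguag
miR-302c-3p, chr3:127545406-127545427, plus strand: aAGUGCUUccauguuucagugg
miR-302d-3p, chr3:127545665-127545687, plus strand: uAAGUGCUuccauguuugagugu
miR-302a-5p, chr3:127545501-127545522, plus strand: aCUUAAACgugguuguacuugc
miR-302b-5p, chr3:127545238-127545260, plus strand: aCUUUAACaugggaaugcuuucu
miR-302c-5p, chr3:127545368-127545389, plus strand: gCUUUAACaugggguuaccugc
The -3p side of miR-302a is shown through its hairpin, with the run AAGUGCU in capitals.
mir-302a hairpin, chr3:127545496-127545564, plus strand: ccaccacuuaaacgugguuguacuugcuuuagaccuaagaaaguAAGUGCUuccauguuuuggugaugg
The 4 hairpins mir-302a to mir-302d share an unbroken run of 16 bases that begins with AAGUGCU.
Shared run: AAGUGCUuccauguuu
miR-302c-3p is listed from the first base of that run, 1 base further in than miR-302b-3p and miR-302d-3p, so its bases 2 to 8 read AGUGCUU. Together with mir-367 the 5 hairpins span 580 bases of the plus strand, chr3:127545228-127545807, inside the spans of the protein-coding gene Larp7 and of the long noncoding RNA Gm51018 in the same table.

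The seed AAGUGCU is rare, and its listed carriers all belong to the mir-302 or the mir-290 cluster. The -3p strand of miR-302a had no mature entry and is not counted here. AAGUGCU was the seed of 5 of 1679 mature mouse microRNAs (0.298%): miR-302b-3p, miR-302d-3p and these 3 of the mir-290 cluster.
miR-291a-3p, chr7:3218968-3218989, plus strand: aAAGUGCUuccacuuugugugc
miR-294-3p, chr7:3220691-3220712, plus strand: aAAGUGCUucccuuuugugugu
miR-295-3p, chr7:3220815-3220837, plus strand: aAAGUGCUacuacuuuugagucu
From AAGUGCU onwards miR-291a-3p follows the mir-302 run for 11 bases, miR-294-3p for 10 and miR-295-3p for 7. The mir-17 family, which drives proliferation in many tissues, carries the same letters 1 base later, so that its seed is AAAGUGC, as in this example.
miR-17-5p, chr14:115043684-115043706, plus strand: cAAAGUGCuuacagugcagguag
The neighbouring mir-367, which ends the mir-302 transcript, has another seed.
miR-367-3p, chr3:127545779-127545800, plus strand: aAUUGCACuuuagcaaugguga
Which RNA of a mouse cell a human-named probe captured, and whether a probe also captured microRNAs of like sequence, was not tested.

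All 4 measured members were far below wild type in the homozygous knockout, by 13.3-fold to 76.5-fold. miR302a, the cluster member with most values, read -6.39 and -6.32 on the arrays of line 1 and -4.65 and -5.37 on those of line 2. Its mean was -5.68 ± 0.95 (SD, n = 2 lines), a 51.4-fold reduction. miR302c had 1 value in each line, -3.22 in line 1 and -4.26 in line 2, both on the arrays with the dyes swapped, and no value on the other array of either line. Its mean was -3.74 ± 0.73 (SD, n = 2 lines), a 13.3-fold reduction. All 6 values of these mir-302 probes lay below 0, as did the knockout mean of 113 of the 117 probes with a value in both lines. The values of miR302c were the nearer to 0, a difference that was not tested.

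The human-named members fell as well. miR371, whose mouse counterparts lie in the mir-290 cluster, read -7.33 and -7.06 in line 1 and -4.47 and -6.17 in line 2, a mean of -6.26 ± 1.33 (SD, n = 2 lines) or a 76.5-fold reduction. miR373*, the strand named as the passenger of mir-373, read -5.71 and -4.16 in line 1 and -3.88 and -4.89 in line 2, a mean of -4.66 ± 0.38 (SD, n = 2 lines) or a 25.3-fold reduction. For miR371 both values of line 1 were lower than both of line 2, while for miR373* the values of the lines overlapped. How often the lines were set apart over all probes was not counted. miR367 is no member but comes from the same transcript as miR302a and miR302c. It had 1 value per line, -3.52 in line 1 and -5.14 in line 2 (-4.33 ± 1.15, SD, n = 2 lines).

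**Figure D1:**
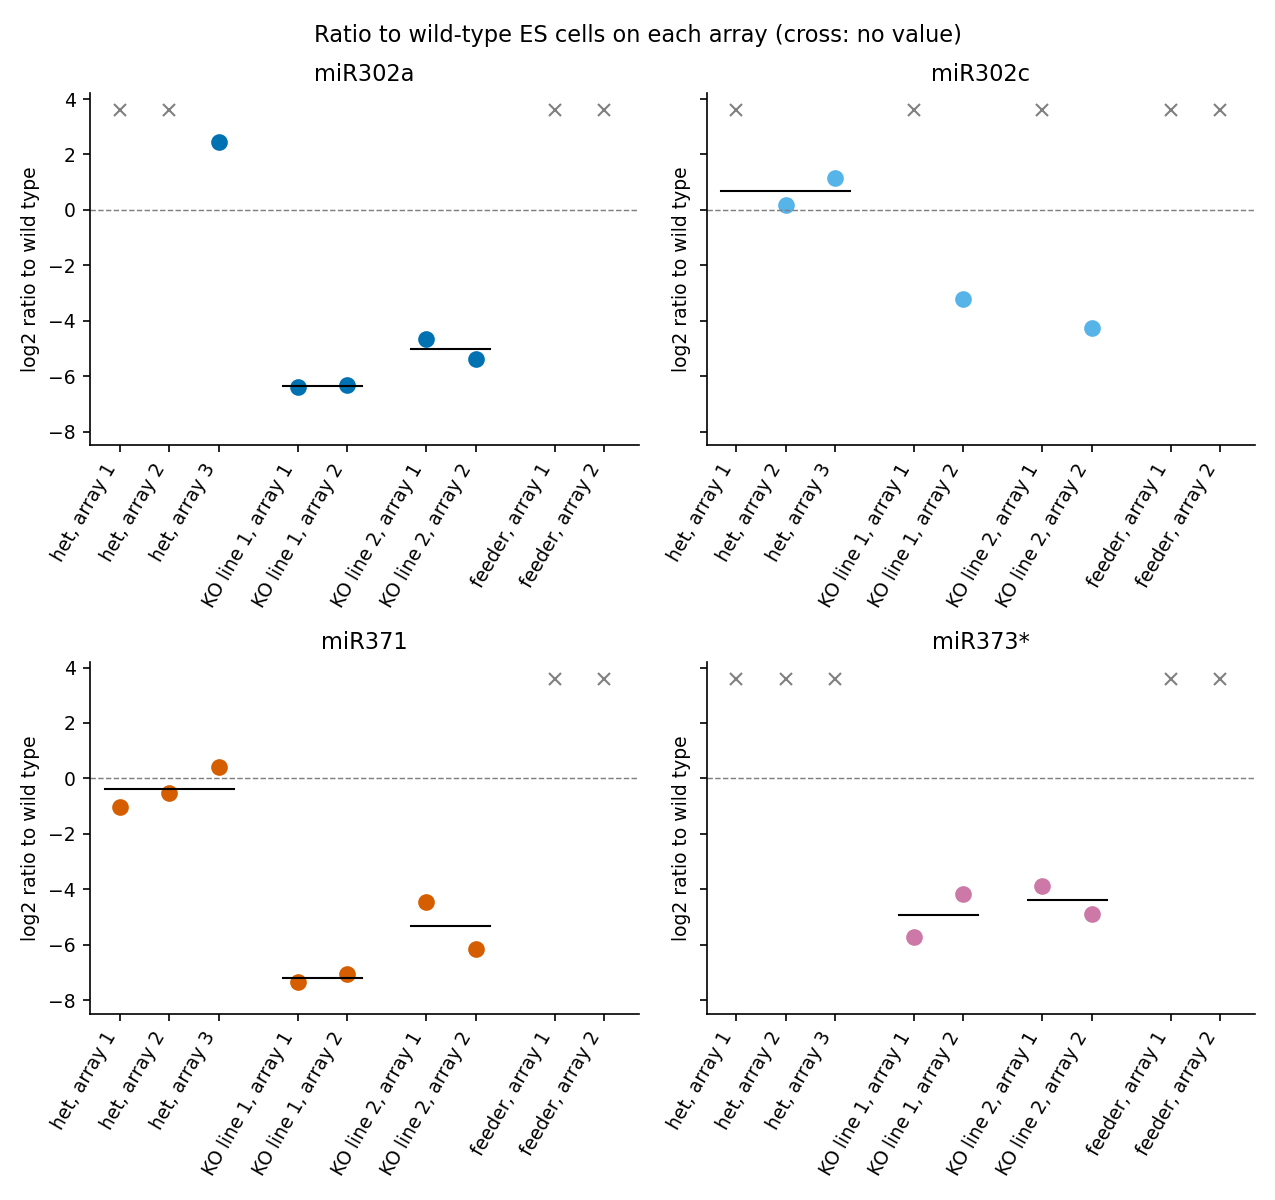
Log2 ratio to wild type (vertical axis) of each measured member on each of the 9 arrays (horizontal axis: het, heterozygous; KO, homozygous knockout; feeder, fibroblasts). Circles are single arrays, horizontal lines are means where a group has more than 1 value, and crosses at the top mark arrays with no value: every knockout circle lies below -3, and no member has a circle on a feeder array.

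Each of these reductions passed the test across all probes. By limma (ratio against 0, Benjamini-Hochberg over the 117 probes with a value in both lines) the adjusted p was 0.000246 for miR302a (95% confidence interval of the log2 ratio -6.89 to -4.48), 0.000315 for miR302c (-4.78 to -2.70), 3.82e-05 for miR371 (-7.56 to -4.95) and 0.000152 for miR373* (-5.52 to -3.80). miR367 passed too (adjusted p = 0.00105). In that comparison 89.7% of all tested probes were called lower, 105 of 117, so 4 of 4 members lower is near the background. The test leaves out the spread of wild type, which was hybridised only as the reference. A probe's own spread had 1 degree of freedom for miR302a, miR373* and miR367, 2 for miR302c and 3 for miR371. The spread was therefore in part borrowed from the other probes, and for miR302c and miR371 it also came from the heterozygous arrays.

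Among the probes that fell, the members sat in the middle and upper part of the range. Counted from the lowest of 117 ratios, miR371 ranked 40, miR302a 55, miR373* 75 and miR302c 90. The interval of each overlapped that of the next, but no test was made between probes, which were read on the same arrays. miR373* read above miR302a on every knockout array, and miR302c above miR373* on both arrays with a miR302c value. miR302a read above miR371 except on replicate 1 of line 2 (-4.65 against -4.47). The median of the 4 members was -5.17 and that of all 117 probes -5.56. The 8 probes of the mir-290 cluster ranged from -8.01 (miR291-3p, 258-fold lower) to -6.59 (miR291-5p), with a median of -7.52, and all 8 were called lower.

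**Figure D2:**
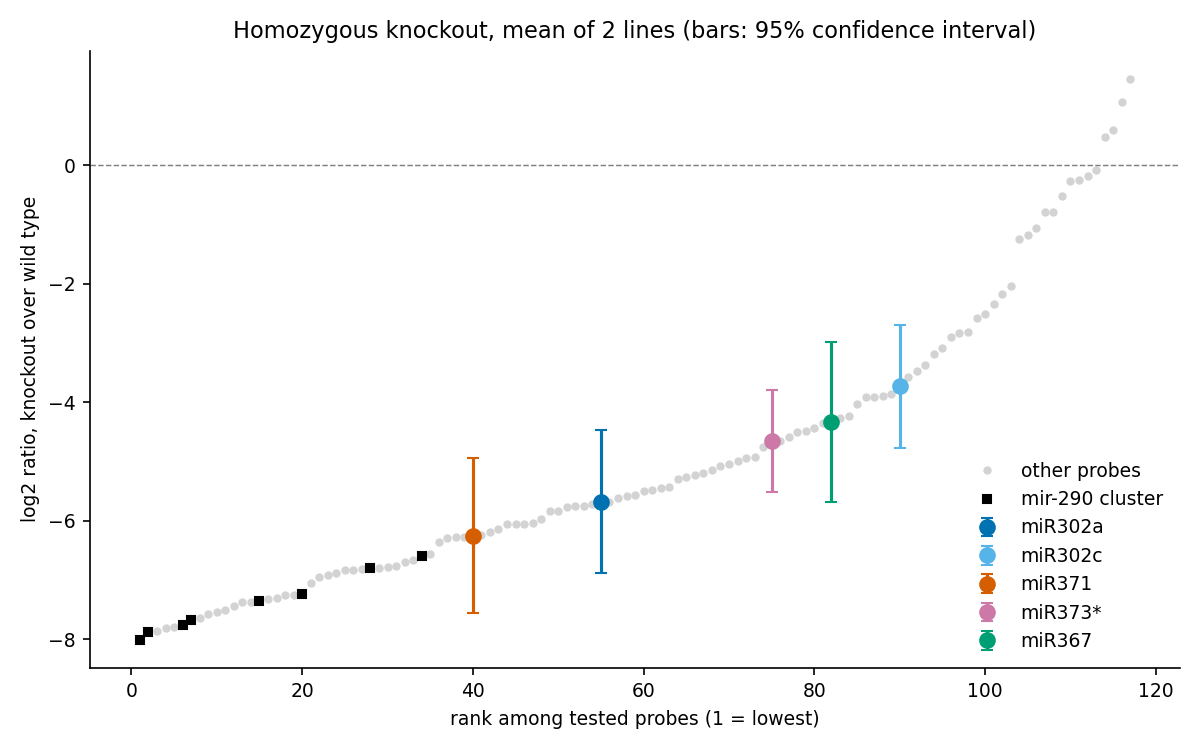
Mean log2 ratio of the homozygous knockout over wild type (vertical axis) of the 117 tested probes, ordered from the lowest (horizontal axis: rank). Coloured points with 95% confidence intervals are the measured members and miR367, black squares the mir-290 cluster and grey points all other probes: the 8 squares lie at or below -6.59, and the members lie between -6.26 and -3.74.

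Within single knockout arrays the same order held for most pairs. miR302a had a higher ratio than all 8 mir-290 probes on 3 knockout arrays and than 7 of 8 on replicate 2 of line 1. miR373* was above all 8 on all 4 arrays, and miR302c on both arrays with a value. miR371 was above all 8 on 3 arrays and above 2 of 8 on replicate 2 of line 1. On replicate 1 of line 2, where the gap was wide, the mir-290 median was -7.36 against -4.65 for miR302a and -4.47 for miR371. Standing above all 8 was common among the probes. The median of the mouse-named probes was -6.16 on replicate 1 of line 1, where the highest mir-290 value was -7.34. It was -4.91 against -6.20 on replicate 1 of line 2, and -5.94 against -6.31 on replicate 2 of line 2. Only on replicate 2 of line 1 was it lower, -5.57 against -4.78. These comparisons are descriptions with no test, and a ratio says nothing of how abundant a microRNA was in wild-type cells.

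The reductions of microRNAs with related seeds can be read beside these values. Of the 7 probes listed for the seed AAGUGCU or its miR302c variant (miR291-3p, miR294, miR295, miR302a, miR302c, miR372 and miR373), 5 were tested and all 5 were called lower, with a median of -7.24. miR291-3p, miR294 (-7.24) and miR295 (-7.88) formed the lower end and miR302a and miR302c the upper end. All 5 tested mir-17 family probes were called lower as well (median -7.58), from miR106a (-7.86) to miR106b (-4.24). The background of these counts is the same 89.7% of all probes called lower.

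How deep the members stood relative to other microRNAs depended on the scale. When each array was centred on the median of its mouse-named probes, the median over all 117 tested ratios moved from -5.56 to 0.06, 29.9% of probes were called lower and 29.9% higher. On that scale miR302a stood at -0.038 (adjusted p = 0.924) and miR371 at -0.61 (adjusted p = 0.281). miR302c was called higher than the typical probe (2.02, adjusted p = 0.00593), and so was miR373* (0.98, adjusted p = 0.0322), while miR367 was not called (0.91, adjusted p = 0.293). All 8 mir-290 probes were still called lower after centring, with a median of -1.88. The fall below wild type is therefore a statement on the control-RNA scale, and the centred values rank the members against the other probes of the array.

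The heterozygous cells asked whether 1 copy of Dgcr8 is enough for these microRNAs. miR371 read -1.03, -0.52 and 0.42 on replicates 1, 2 and 3, a mean of -0.38 ± 0.73 (SD, n = 3 arrays). miR302c had no value on replicate 1 and read 0.19 and 1.17 on replicates 2 and 3, a mean of 0.68 ± 0.69 (SD, n = 2 arrays). miR302a had a single value, 2.45 on replicate 3, and was not tested. miR371 lay on both sides of 0, and no heterozygous value of any member came near the knockout values.

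Neither tested member passed the test against wild type in the heterozygous cells. By limma the adjusted p was 0.94 for both miR302c (95% confidence interval -0.36 to 1.71) and miR371 (-1.44 to 0.69), with 0 of 95 tested probes called in either direction (0% called lower, 0% higher) and 3 of 95 at an unadjusted p under 0.05. The intervals leave room for miR302c to be up to 3.28-fold higher and for miR371 to be up to 2.72-fold lower. In the heterozygous cells the 8 mir-290 probes lay between -0.30 and 0.11, and none was called. No label ties the heterozygous arrays to separate cultures, and their 3 values come from 2 preparations, so n may be too high and the spread technical. With replicates 1 and 2 averaged the mean of miR371 was -0.18 (limma, adjusted p = 0.985), and that of miR302c, with no value on replicate 1, was again 0.68.

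On heterozygous replicate 3 the mir-302 probes were at the top of the array. miR302a (2.45, 5.45-fold over wild type) ranked first and miR302c (1.17, 2.25-fold) second of the 84 probes with a value, with the likely direction (with the ratio turned they would be the 2 lowest), ahead of let7e (1.06), miR138-1 (0.89), miR294 (0.85) and miR150 (0.76), the last 4 named after their values were seen. Of these 84 probes, 3 lay above 1 and 78 within 1 of 0. On replicate 2 miR302c ranked 36 of 122. miR371 stood 1.19 higher on replicate 3 than on the mean of the other arrays, the second highest such difference among the 68 probes with a value on all 3, where the median difference was 0.14. All 8 mir-290 probes, too, were higher on replicate 3 than on both others, which 34 of the 68 probes were.

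Replicate 3 also stood apart as an array. Across probes its Pearson correlation with replicate 1 was 0.289 (70 probes) and with replicate 2 it was -0.0614 (80 probes), while replicates 1 and 2 had 0.498 (81 probes), as descriptions of ratios that are nearly all close to 0. Replicates 1 and 3 share the dye orientation and replicate 2 has the opposite one. The labels do not say which of the 3 arrays share an RNA preparation, so a preparation and an array cannot be told apart for the mir-302 values. Without replicate 3 miR302a had no heterozygous value, miR302c 1 value (0.19), and miR371 a mean of -0.78.

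**Figure D3:**
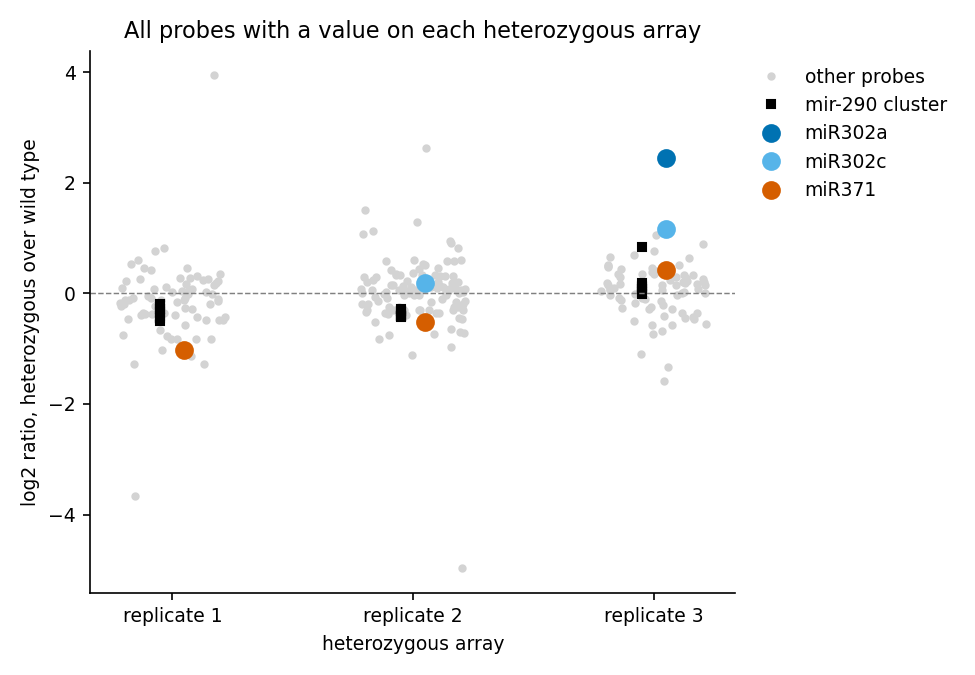
Log2 ratio of heterozygous knockout over wild type (vertical axis) of all probes with a value on each of the 3 heterozygous arrays (horizontal axis). Large coloured circles are members, black squares the mir-290 cluster and grey points other probes, spread sideways for visibility: on replicate 3 miR302a (2.45) and miR302c (1.17) are the highest points, and on replicate 1 miR371 (-1.03) lies below all 8 squares.

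Set against the heterozygous cells directly, in which the wild-type reference cancels, the 2 members that could be tested were far lower in the knockout. The log2 difference of knockout over heterozygous was -4.41 for miR302c (limma, adjusted p = 0.000677), a 21.3-fold difference. For miR371 it was -5.88 (adjusted p = 0.000188), a 58.9-fold difference. The lowest heterozygous value of these 2 members was -1.03 and their highest knockout value -3.22. How many of the 92 tested probes were set apart in this way was not counted. In this comparison 91.3% of the 92 tested probes were called lower and 2.17% higher, so both members followed the bulk of the probes. This comparison shares its knockout arrays with the one against wild type and is no separate evidence. After centring, the difference was 1.40 for miR302c (adjusted p = 0.0611) and -0.26 for miR371 (adjusted p = 0.74), where 29.3% of probes were called lower and 26.1% higher.

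No member passed the test between the 2 knockout lines, and the mean of line 2 was the higher one for 3 of the 4. Of all 108 tested probes only 35 had a difference of line 2 over line 1 below 0, so a higher line 2 was common. The log2 difference of line 2 over line 1 was 1.35 for miR302a (95% confidence interval -0.11 to 2.80, adjusted p = 0.389), 1.88 for miR371 (0.21 to 3.55, unadjusted p = 0.0316, adjusted p = 0.332), 0.54 for miR373* (-1.26 to 2.34, adjusted p = 0.766) and -1.04 for miR302c (-3.42 to 1.34, adjusted p = 0.766). These come from limma on single arrays, with no separate cultures of a line. For miR302c each line had 1 array, so its spread came from heterozygous replicates 2 and 3 and from the other probes, and the single array of each line was assumed to vary like these. For miR302a and miR373* the spread was that between repeat hybridisations, and for miR371 also that between the heterozygous arrays. The difference of miR371 rested in part on single arrays of line 2: it was 1.03 without replicate 1 and 2.73 without replicate 2, and was not called either way. Of 108 tested probes 0 were called (0% in either direction), 15 had an unadjusted p under 0.05, and the median difference was 0.36. miR371 ranked seventh from the highest difference of the 108. For miR302a and miR371 both arrays of line 2 read above both arrays of line 1, which was not counted over all probes. On replicate 1 of line 2 the median mouse probe read -4.91, the highest of the 4 knockout arrays (-6.16 to -4.91). After centring each array the differences were 0.90 for miR302a and 1.44 for miR371, neither of which was called.

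**Figure D4:**
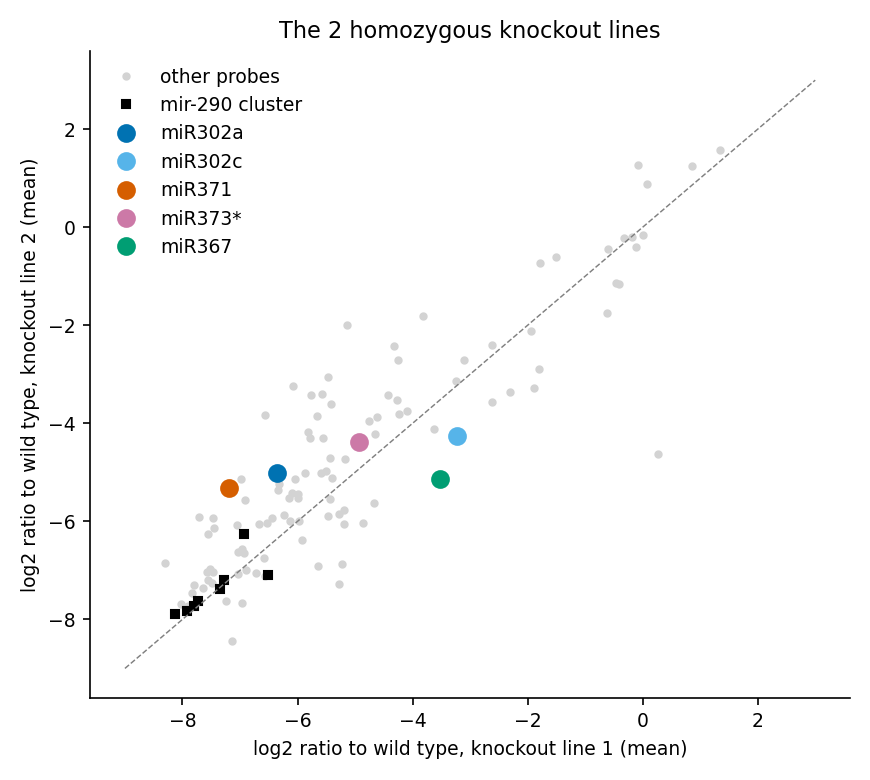
Mean log2 ratio to wild type of each probe in knockout line 1 (horizontal axis) and knockout line 2 (vertical axis), with the dashed line at equal values. Coloured circles are the measured members and miR367, black squares the mir-290 cluster and grey points other probes: miR371, miR302a and miR373* lie above the line, and miR302c and miR367, with 1 array per line, lie below it.

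No member had a value on either feeder array, so no ratio of fibroblasts over ES cells, and no difference of knockout from fibroblasts, could be given for them. On those arrays 135 of the 206 probes had a value. All 8 mir-290 probes were measured there and lay far below wild-type ES cells (-7.95 to -5.92), and all 15 fibroblast marker probes on the array were above it (2.19 to 5.88). In the knockout lines 0 of 11 measured fibroblast markers in line 1 and 0 of 10 in line 2 were above 0 (line means of -7.29 to -1.89), so these ratios, too, were below wild type. Whether fibroblast RNA added to the knockout signal of the members was not tested, and the rule by which a spot was left without a value is not given in the sources used here. A missing value is therefore no measure of absence.

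Few probes had the pattern of present and missing values found for miR302a, miR371 and miR373*, which miR302c, with 1 value in each line, did not share. Of 86 probes with a value on all 4 knockout arrays, 6 had none on a feeder array: miR302a, miR371, miR373*, and miR128a, miR149 and miR195, the last 3 named after their values were seen. Among the 117 probes with a value in both lines, 15 had no feeder value. miR373* was the only probe of the 86 with no value on any heterozygous or feeder array, so that its ratio was measured in the knockout alone. A ratio near the wild-type level has thus never been recorded for the miR373* probe here, and its reduction rests on 4 low ratios.

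Only miR371 had values on enough arrays (7, with a minimum of 6) to ask which probes followed it most closely. By the root-mean-square difference in log2 ratio over these 7 arrays, among 65 probes with values on all of them, the nearest were miR124a-1 (0.455), a neuronal microRNA, miR300 (0.627) and miR291-5p (0.733), the last from the mir-290 cluster. The other 7 mir-290 probes were farther off, at ranks 29 (miR294, 1.16) to 50 (miR291-3p, 1.53) of the 65. The 3 nearest were, like miR371, near wild type in the heterozygous cells and far below it in the knockout, as were most probes. The arrays share the wild-type reference, and no test was made of this likeness.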

How the data were processed

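Gel-purified small RNA with added control RNAs received tails and capture sequences and was hybridised on 2-colour arrays, per the labels' protocols. The deposited values were log10 ratios in 7 columns, and the same kind of value beside 3 spreadsheet error cells in the other 2 columns (unit other in the deposited table). The authors scaled them on positive control RNAs, per the series text, with centring not stated. For the image software and the background correction, nothing is stated in these sources. Null and error cells were taken as missing, so the number of values per array was 84 to 133 of 206, and signal over background is unknown. The base was seen on replicate 2 of knockout line 1, where 90 of 90 low values were log10 of ratios with 4 decimals (3.45 by chance). The same check on the other 3 knockout arrays found 1 of 76, 2 of 68 and 4 of 75, near chance, so the base did not show there and was assumed, as on the heterozygous and feeder arrays. The direction rests on the series text. Values were multiplied by 3.3219 to log2, with no pseudocount.

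Limma 3.58.1 in R 4.3.3 was fitted on 6 values per probe (each of 3 heterozygous arrays, 1 mean for each knockout line, 1 mean for the feeders) with 1 shared spread, human-named probes included. A probe needed both lines for the knockout and 2 heterozygous arrays for the heterozygous comparison. The 3 heterozygous arrays were kept single because the arrays that share 1 of the 2 preparations are not labelled. The lines were compared with 9 arrays as single values. P-values were adjusted by Benjamini-Hochberg over all probes tested in a comparison, with a threshold of 0.05, and the code was tested on simulated data. Nothing says that arrays came from separate cultures, so p-values measure a spread that may be technical. All members were named. Probes like a member were the nearest 3 by root-mean-square difference, and other probes were named from the lists or where stated. The members and lists (mir-302, mir-290, the shared seed, the mir-17 family, fibroblast markers) were chosen with earlier results of these data known. The alternatives were centring, single arrays with and without a dye term or a block, and stricter filters on missing values. Others were the first 2 heterozygous arrays averaged, probes without a mouse gene left out except the members, and leaving out each array.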

Additional observations from a re-analysis of the deposited data

How the results depend on the processing

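Of 301 recomputed values, 271 kept their direction and side of the threshold, stayed within 1.5 times for a count, or, for a level with no test, moved by less than the SD between arrays. Some of the 271 could not have moved: leaving out a heterozygous or feeder array does not alter a member's ratio of knockout over wild type. Centring each array accounted for 12 of the others: knockout over wild type then had 35 probes lower and 35 higher, with miR302a at -0.038, miR302c at 2.02, miR371 at -0.61, miR373* at 0.98 and miR367 at 0.91. Knockout over heterozygous had 27 lower and 24 higher, with miR302c at 1.40 and miR371 at -0.26, and miR302a on heterozygous replicate 3 read 2.36 in place of 2.45 (1 array, so no SD to set this against). By construction centring removes the shift shared by the probes of an array. With values required on all 9 arrays, 58 probes and no member were tested, with 55 lower and 1 higher both against wild type and against the heterozygous cells. With values required in all 3 groups no member was tested either, and 1 probe was higher in line 2. With a replicate block 72 of 80 probes were lower and 1 higher than wild type, 1 was higher than the heterozygous cells, and miR371 stood at -5.86. Same-numbered arrays also share the dye orientation, but no label gives them a shared batch. Their deviations correlated by 0.0378 to 0.415, not all over 0.1 (in groups of 2 arrays both numbers give the same value), and the numbers were not taken as pairs. Averaging heterozygous replicates 1 and 2 left 1 probe higher than the heterozygous cells. Leaving out each array in turn gave 84 to 105 probes lower than wild type and 65 to 84 lower and 0 to 2 higher than the heterozygous cells, 0 to 1 lower in the heterozygous cells, and 0 to 1 lower and 0 to 2 higher in line 2; the cause was not tested. Member ratios in the knockout then ranged from -5.86 to -5.51 for miR302a, -6.68 to -5.83 for miR371 and -5.05 to -4.27 for miR373*, all still called. miR302c and miR367 could not be tested without the 1 array that gave their value in a line. The line difference of miR371 ranged from 1.03 to 2.73, that of miR302a from 0.99 to 1.70 and that of miR373* from -0.23 (without replicate 1 of line 1) to 1.32, all uncalled.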
